A study of Mus musculus with 9 samples.

Results

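The enzymes that make and break down heme were followed in the livers of mice given doxycycline (Dox), tetracycline (Tc) or no antibiotic. The set was defined by gene name, with no expression value in the rule, and held 9 of the 32285 rows of the table: Alas1, Alas2, Alad, Uros, Urod, Cpox, Ppox, Fech and Hmox1. All livers came from male Tet-OFF mice, which carry a PB CAG-CreERT2 transgene (a tamoxifen-inducible Cre under the ubiquitous CAG promoter), a Rosa26 allele that makes the transactivator tTA once Cre has removed a stop cassette, and a tetO-Venus-ires-mCherry reporter. All 3 groups received tamoxifen, the controls included. Dox hyclate or Tc hydrochloride was given to 4-week-old mice at 2 mg/mL in drinking water with 10 mg/mL sucrose for 7 days. Whether the control water held sucrose is not given in the sources used here. Each group (Control, Dox, Tc) had 3 RNA-seq libraries, numbered 1 to 3. Because either antibiotic also switches off the tTA-driven reporter, the effect of the drug and that of the reporter state cannot be told apart.

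Heme is the iron-containing ring that lets hemoglobin carry oxygen and lets cytochrome P450 enzymes and respiratory cytochromes pass electrons. Its synthesis begins in mitochondria, where 5-aminolevulinate synthase joins glycine to succinyl-CoA in the rate-limiting step, continues in the cytosol, and ends back in mitochondria with the insertion of iron. ALAS1 is the housekeeping form of the first enzyme and is held down by heme itself in hepatocytes, whereas ALAS2 is the form of developing red cells. Heme oxygenase opens the ring to give biliverdin, iron and carbon monoxide, and its inducible form, HMOX1, is abundant in macrophages that take up old red cells.

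The promoters of Alas1 and Alas2 are shown because the comparison of these isoenzymes is central to what follows. Promoter windows from RefSeq on GRCm38.p6, each running from 250 bases before to 50 bases after a start site, were used for 7 of the 9 genes, all but Fech and Hmox1. The Alas1 window shown lies at chr9:106247681-106247980 on the minus strand and the Alas2 window at chrX:150547167-150547466 on the plus strand. For each, the bases that follow the start site also occur near the beginning of a GENCODE transcript, which does not show that a transcript starts there. Capitals mark every match, on either strand, of GATA, the core of the erythroid GATA factor motif, or of GCATGCGC, a stretch of the palindromic motif of NRF1, a regulator of respiratory genes.
Alas1: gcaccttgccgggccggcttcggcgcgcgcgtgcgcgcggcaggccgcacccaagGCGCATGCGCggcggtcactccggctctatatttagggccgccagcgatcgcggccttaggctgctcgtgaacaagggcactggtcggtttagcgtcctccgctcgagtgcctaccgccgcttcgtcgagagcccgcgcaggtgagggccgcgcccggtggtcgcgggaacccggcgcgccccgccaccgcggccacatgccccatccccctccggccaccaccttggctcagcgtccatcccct
Alas2: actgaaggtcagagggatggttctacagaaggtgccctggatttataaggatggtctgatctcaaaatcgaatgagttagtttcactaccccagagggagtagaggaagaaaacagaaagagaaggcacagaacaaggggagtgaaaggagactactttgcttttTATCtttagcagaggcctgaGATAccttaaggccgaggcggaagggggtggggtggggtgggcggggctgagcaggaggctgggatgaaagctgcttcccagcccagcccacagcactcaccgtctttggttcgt
The Alas1 window shown held 2 overlapping matches of GCATGCGC, 1 on each strand, 195 and 193 bases before the start site, 1 match of CACCC, 203 bases before it, and 0 matches of GATA. In another Alas1 window, at chr9:106247905-106248204, the same GCATGCGC matches lie 29 and 31 bases after its start site. The bases after that site were not found near the beginning of a GENCODE transcript, and the positions depend on the start site taken. The Alas2 window held 2 matches of GATA, 85 and 65 bases before the start site, 3 matches of CACCC between 40 and 30 bases before it, and 0 matches of GCATGCGC. Of 32851 windows of the same length, 2.71% held GCATGCGC, 57.9% held GATA and 57.5% held CACCC. GATA and CACCC are thus short and common words, and a match describes the letters only.

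Between 7426136 and 12183041 reads were counted on genes per library. The libraries numbered 3 need a remark before any value is read. Within each group, library 3 was fitted as a weighted sum of libraries 1 and 2. The fitted weights were 58.4% and 41.7% in controls, 61.3% and 34.5% with Dox and 61.2% and 36.9% with Tc. No error of these fits and no like fit of another library is given here, so how close they were is not shown. Genes whose libraries 1 and 2 were over 2-fold apart were also read. For these, the value of library 3 fell between the others for 501 of 586 in controls, 4139 of 4264 with Dox and 962 of 1022 with Tc. The same held for 7, 9 and 7 of the 9 heme genes. A value from a separate liver may also fall within so wide a gap, so these counts do not tell where libraries 3 came from. Whether libraries 3 came from mice of their own was not tested. The tests of the 9 genes were repeated without them, a choice made with the data known. Dox library 2 stood apart as well: it held the lowest value of all 9 libraries for 7 of the 9 heme genes and the highest for Hmox1.

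Differences were tested with limma on log2(normalized count + 1), in 1 model of all 9 libraries, and a gene was called at a Benjamini-Hochberg adjusted p under 0.05 over 12100 genes together with a fold change over 2. None of the 9 heme genes was called in the comparison of Dox with controls, where 5% of all genes were called, of Tc with controls, where 0.165% were, or of Dox with Tc, where 0.215% were. At an unadjusted p under 0.05 the heme genes numbered 2, 1 and 5 in these comparisons, beside 3516, 1412 and 2622 of all 12100 genes. The libraries of the groups compared did not overlap for 2 of the 9 heme genes in each comparison: Uros and Cpox for Dox against controls, Alas1 and Fech for Tc against controls, and Alas1 and Cpox for Dox against Tc. Over all genes tested, 33.3%, 30.7% and 24.6% did not overlap. The median log2 difference over the 9 genes was -0.07 with Dox and 0.29 with Tc against controls, and -0.64 for Dox against Tc, beside medians over all genes of 0.00, 0.00 and -0.02. DESeq2 on the whole reads recovered from the table called Hmox1 and Uros with Dox, where it called 9.4% of genes, Alas1 with Tc, where it called 1.56%, and Alas1 and Hmox1 for Dox against Tc, where it called 4.98%. edgeR on the same reads called 0 of the 9 genes in each comparison, and 668, 21 and 0 of all 12100 genes. Without libraries 3, neither limma nor DESeq2 called any of them. With 2 libraries per group, limma called 0 of 12096 genes in every comparison and DESeq2 called 145, 9 and 31. The missing calls and high adjusted p without libraries 3, here and below, thus do not show that a difference was absent.

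**Figure D1:**
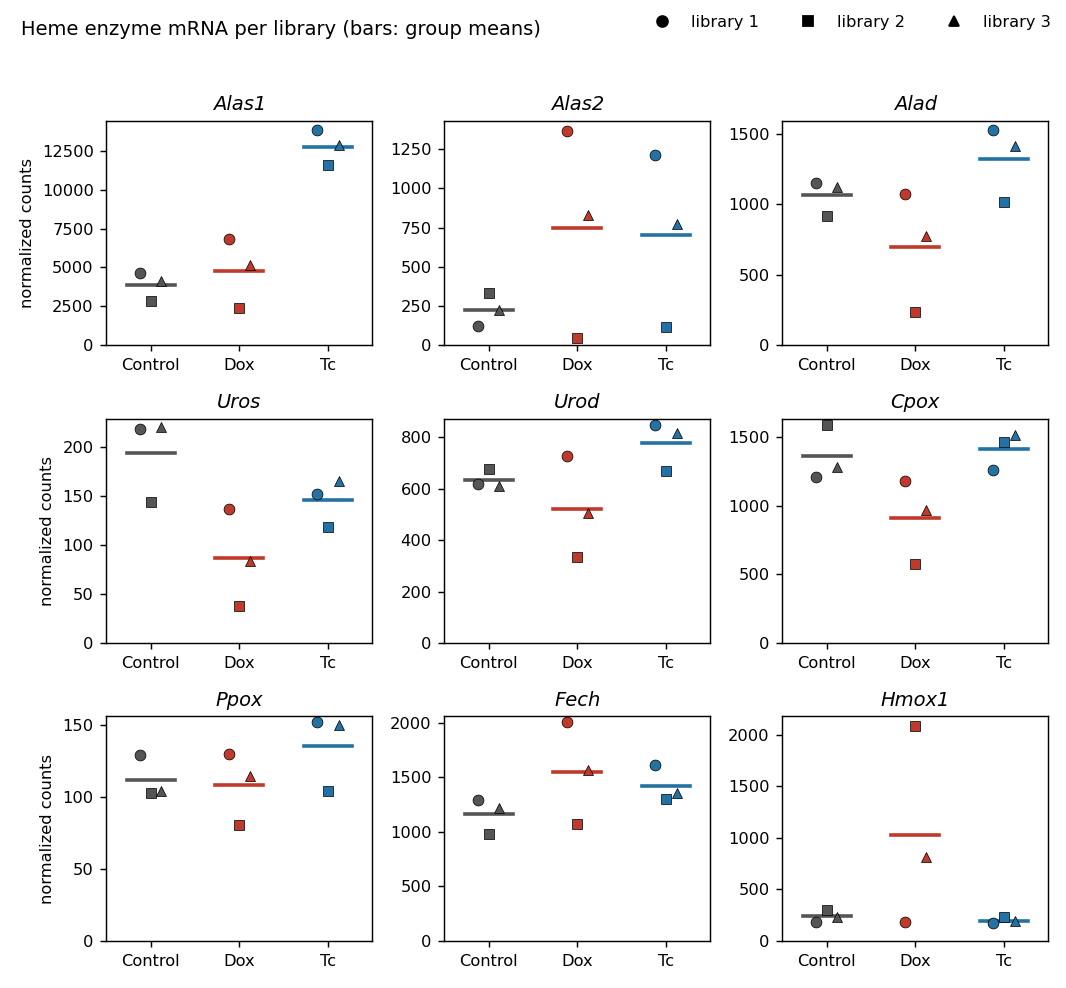
Normalized counts of the 9 heme genes in each library, with 1 panel per gene and its own linear axis from 0; circles, squares and triangles are libraries 1, 2 and 3 and bars are group means. The Tc libraries stand above all others for Alas1, and Dox library 2 is the lowest point in 7 of the 9 panels but the highest for Hmox1.

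**Figure D2:**
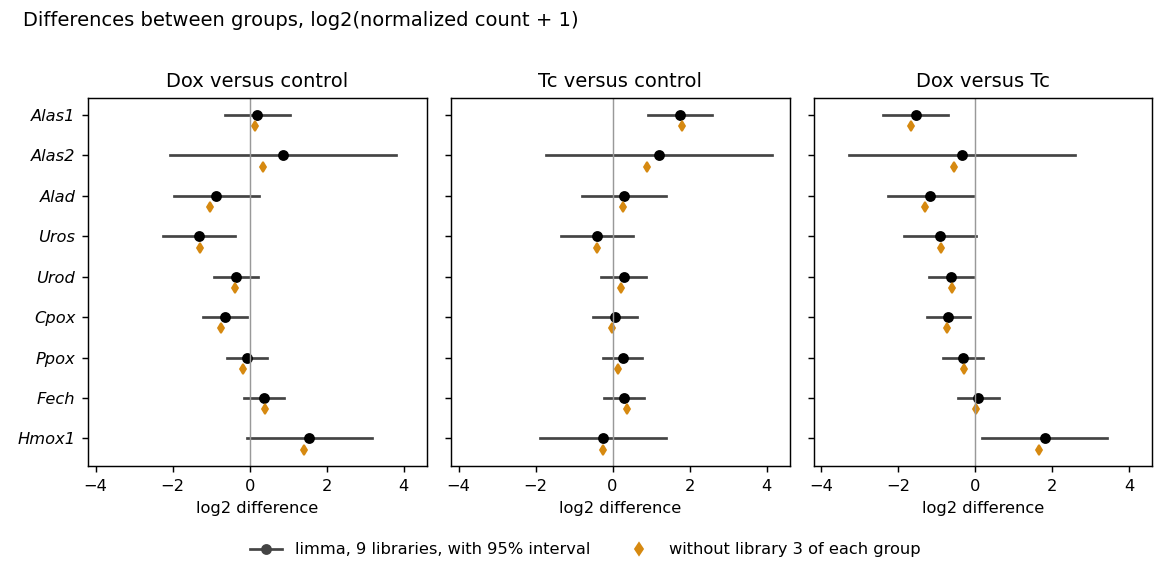
Differences on the log2(normalized count + 1) scale for each heme gene in the 3 comparisons; dots with lines are the limma estimate with its 95% interval over 9 libraries, and diamonds the estimate without libraries 3. For Tc against controls the interval lies wholly above 0 for Alas1 alone, and the Alas2 interval is the widest in every comparison.

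Alas1 (ENSMUSG00000032786, chromosome 9, 106233455 to 106248654 in GRCm38) had the largest difference from controls of the 9 genes with Tc. It stood at 4639.5, 2863.7 and 4115.4 normalized counts in control libraries 1 to 3 and at 13893.8, 11599.6 and 12895.2 in the Tc libraries. Every Tc library was at least 2.5-fold above the highest control and at least 1.7-fold above the highest Dox library. With Dox the values were 6826.5, 2357.0 and 5137.9, which spanned a 2.90-fold range around the control values. For Tc against controls the log2 difference was 1.75 (standard error 0.37, 95% interval 0.91 to 2.59), the adjusted p with limma was 0.138, and only 0.529% of all genes tested had a larger log2 difference. For Dox against controls it was 0.20 (standard error 0.37, interval -0.64 to 1.04, limma adjusted p = 0.745).

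Whether Alas1 passed the test with Tc turned on which libraries and which tool gave the estimate of the spread. In all, 6 of 23 alternatives called it, and their adjusted p ranged from 1.29e-16 to 1 over all 23. With only the Tc and control libraries in the fit, limma gave an adjusted p of 0.00308, and without Dox library 2 it gave 0.00347. DESeq2 gave 0.000444 with all 9 libraries. Without libraries 3, the log2 difference was 1.80, with an adjusted p of 1 with limma and 0.603 with DESeq2.

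Alas2 (ENSMUSG00000025270, chromosome X, 150547375 to 150570638), the erythroid isoenzyme, spread more widely than any other member within each group. It stood at 118.6, 335.3 and 222.5 normalized counts in control libraries 1 to 3. With Dox the values were 1367.8, 46.0 and 827.9, and with Tc they were 1211.8, 115.1 and 774.8. Libraries 1 and 3 of either drug lay above every control, while library 2 of either drug lay below every control. The highest value was 29.7-fold the lowest with Dox and 10.5-fold with Tc, against 2.83-fold in controls. The log2 difference from controls was 0.86 with Dox (standard error 1.29, limma adjusted p = 0.683) and 1.20 with Tc (standard error 1.29, limma adjusted p = 0.791), both smaller than their standard error. Without libraries 3 these differences were 0.34 and 0.90. In the annotation, 12.9% of Alas2 exon bases are shared with Apex2 and 7.5% of Alas1 exon bases with 4930500F10Rik, both on the opposite strand. The kit kept strand, but the strand setting of the counting is not given in the sources used here. Between the drugs, the libraries kept the same order by number, with Dox at 1.13, 0.400 and 1.07 times the Tc value in libraries 1 to 3.

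The isoenzymes thus differed in the width of their spread: every Tc library was above every control for Alas1 but not for Alas2. The highest Alas1 value was 2.9-fold the lowest with Dox and 1.2-fold with Tc, against 29.7-fold and 10.5-fold for Alas2. The order of libraries did not set them apart. Within each drug both genes were highest in library 1 and lowest in library 2. With Dox this order held for all other members except Hmox1, but with Tc Uros, Cpox and Hmox1 ran in other orders. Within a library, log2((Alas1 + 1)/(Alas2 + 1)) was 5.28, 3.09 and 4.2 in controls, 2.32, 5.65 and 2.63 with Dox and 3.52, 6.64 and 4.06 with Tc. Group means were 4.19 ± 1.09 (SD, n = 3), 3.53 ± 1.84 and 4.74 ± 1.67, and every pair of groups overlapped. The difference was -0.66 for Dox against controls (two-sided exact permutation p = 0.6), 0.55 for Tc against controls (exact p = 0.7) and -1.21 for Dox against Tc (exact p = 0.5). All 3 p-values were 0.7 after Benjamini-Hochberg adjustment, and 0.1 is the smallest p that 3 against 3 allows in this exact test. Dox and Tc libraries of the same number were taken as paired, and within each pair the ratio was lower with Dox, with differences of -1.20, -0.99 and -1.42. The exact sign-flip p over these pairs was 0.25, the smallest that 3 pairs allow. The pairing was inferred from these same data, and since the source of libraries 3 was not tested, the third pair cannot be taken as independent. Without libraries 3 the differences were -0.20, 0.90 and -1.10. The sign for Tc against controls turned without Tc library 2, where the difference was -0.40. Per kilobase of transcript, Alas1 exceeded Alas2 in every library. The ratio ran from 2.99 in Dox library 1 to 60.4 in Tc library 2, and was 23.5, 5.12 and 11.1 in controls.

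**Figure D3:**
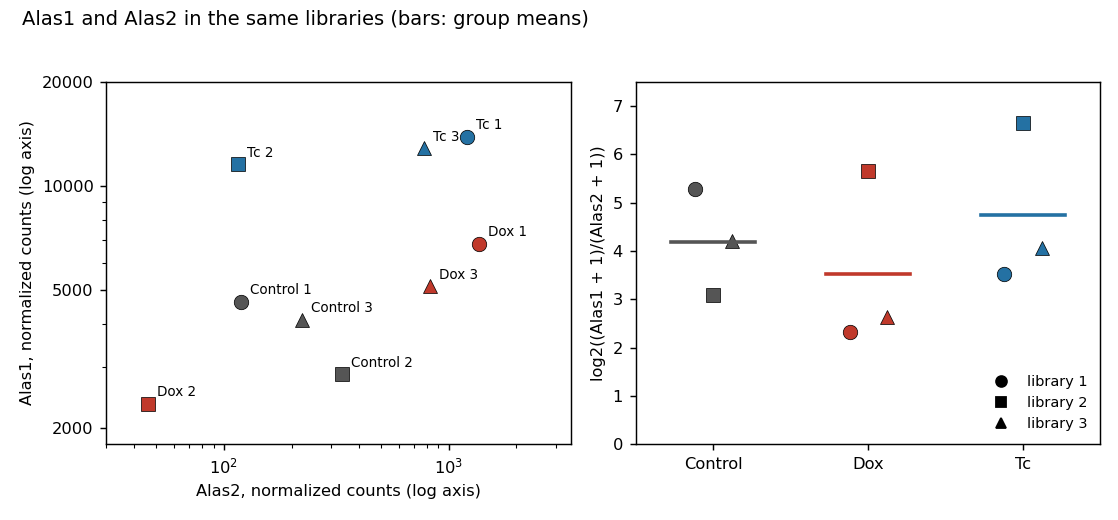
Left, Alas1 against Alas2 normalized counts per library on log axes; right, the log2 ratio of both genes by group, with bars at the group means and symbols for library number. The Tc libraries lie together at the top on the Alas1 axis but reach from 115.1 to 1211.8 on the Alas2 axis, and the ratios of the 3 groups overlap.

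The next enzymes of the pathway work in the cytosol. ALAD joins pairs of aminolevulinate molecules into porphobilinogen, UROS closes a chain of pyrrole units into the uroporphyrinogen III ring and UROD trims its side chains. Alad (ENSMUSG00000028393, chromosome 4) stood at 1152.7, 914.8 and 1125.2 normalized counts in controls, 1070.9, 235.8 and 774.2 with Dox, and 1531.2, 1018.9 and 1415.8 with Tc. Dox library 2 was alone far below the rest, and the groups overlapped. The log2 difference was -0.87 for Dox (standard error 0.48, limma adjusted p = 0.266) and 0.30 for Tc (standard error 0.48, limma adjusted p = 0.867), and that for Dox was -0.22 without Dox library 2, -1.31 without Dox library 1 and -1.03 without libraries 3.

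Uros (ENSMUSG00000030979, chromosome 7, 133686243 to 133710072) had the most negative log2 difference from controls of the 9 genes with Dox. It stood at 218.1, 144.2 and 219.9 normalized counts in controls and at 136.9, 38.0 and 83.6 with Dox, so that every Dox library lay below every control, with the nearest values (136.9 and 144.2) close together. The Tc values of 152.3, 118.7 and 165.1 lay within or below the control range. The log2 difference was -1.32 for Dox (standard error 0.41, 95% interval -2.26 to -0.38, limma adjusted p = 0.0808) and -0.40 for Tc (standard error 0.41, limma adjusted p = 0.778). For Dox, 4 of 23 alternatives called Uros, with adjusted p from 0.0029 to 0.613 over all 23. DESeq2 gave 0.0311 and limma with the replicate number as a block 0.0437. Without Dox library 2 the log2 difference was -0.83 (limma adjusted p = 0.0585), and without Dox library 1 it was -1.74 (limma adjusted p = 0.0143). Without libraries 3 it was -1.28, with an adjusted p of 0.583 with limma and 0.613 with DESeq2.

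Urod (ENSMUSG00000028684, chromosome 4) had the narrowest control range among the 9 genes, at 617.1, 675.0 and 610.3 normalized counts. It stood at 725.5, 333.6 and 506.8 with Dox and 847.6, 667.3 and 817.8 with Tc. Dox libraries 2 and 3 lay below every control and Dox library 1 above them, whereas 2 of the 3 Tc libraries lay above every control. The log2 difference was -0.35 for Dox (standard error 0.25, limma adjusted p = 0.384) and 0.29 for Tc (standard error 0.25, limma adjusted p = 0.736). For Dox it was -0.06 without Dox library 2 and -0.62 without Dox library 1. Without libraries 3, the differences were -0.39 and 0.22.

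CPOX, PPOX and FECH carry out the closing steps in mitochondria: the first 2 oxidize the ring to protoporphyrin IX and FECH, ferrochelatase, inserts iron. Cpox (ENSMUSG00000022742, chromosome 16, 58670292 to 58717636) stood at 1208.8, 1582.7 and 1280.3 normalized counts in controls, 1177.2, 575.2 and 968.6 with Dox, and 1259.7, 1464.0 and 1513.5 with Tc. Every Dox library lay below every control and every Tc library, but Dox library 1 only just. The log2 difference from controls was -0.63 for Dox (standard error 0.25, 95% interval -1.20 to -0.06, limma adjusted p = 0.139) and 0.06 for Tc (standard error 0.25, limma adjusted p = 0.956). It was -0.75 for Dox without libraries 3 and -0.34 without Dox library 2, and 0 of 23 alternatives called it.

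Ppox (ENSMUSG00000062729, chromosome 1) stood at 129.1, 102.6 and 104.3 normalized counts in controls, 129.5, 80.5 and 114.4 with Dox, and 152.3, 104.3 and 149.9 with Tc. All 3 groups overlapped. The log2 difference was -0.07 for Dox (standard error 0.23, limma adjusted p = 0.86) and 0.26 for Tc (standard error 0.23, limma adjusted p = 0.735), and the sign for Dox turned, to 0.10, when libraries were scaled to the same total. Without libraries 3, the differences were -0.17 and 0.13. In the annotation 17.5% of Ppox exon bases are shared with B4galt3 on the opposite strand.

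Fech (ENSMUSG00000024588) was above the controls in most drug libraries. It stood at 1290.3, 979.4 and 1219.2 normalized counts in controls, 2005.9, 1073.2 and 1566.0 with Dox, and 1612.2, 1298.5 and 1355.1 with Tc. Dox libraries 1 and 3 and all 3 Tc libraries lay above every control, with Tc library 2 above the highest control by 1.01-fold. The log2 difference was 0.38 for Dox (standard error 0.23, limma adjusted p = 0.306) and 0.29 for Tc (standard error 0.23, limma adjusted p = 0.689). For Dox it was 0.62 without Dox library 2, 0.17 without Dox library 1 and 0.38 without libraries 3.

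Hmox1 (ENSMUSG00000005413, chromosome 8, 75093621 to 75100589) was at the control level with Tc and differed widely among the Dox livers. It stood at 181.0, 303.4 and 228.8 normalized counts in controls and 170.9, 227.5 and 190.3 with Tc. With Dox it stood at 185.3, 2083.2 and 816.4. Dox library 1 was thus within the control range and Dox library 2 was 8.76-fold above the control mean, with library 3 between them. The log2 difference for Dox was 1.55 (standard error 0.72, 95% interval -0.08 to 3.18, limma adjusted p = 0.192), and 1.43% of all genes tested had a larger one. For Tc it was -0.25 (standard error 0.72, limma adjusted p = 0.938). For Dox, 3 of 23 alternatives called Hmox1, with adjusted p from 0.00844 to 0.673 over all 23, and DESeq2 with all 9 libraries gave 0.0107. Without Dox library 2 the log2 difference was 0.74, without Dox library 1 it was 2.48 (limma adjusted p = 0.00844), and without libraries 3 it was 1.40 (adjusted p = 0.673 with limma and 0.328 with DESeq2).

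The partners of HMOX1 were read beside it. Hmox2, the constitutive heme oxygenase, stood at 621.4, 575.9 and 536.5 normalized counts in controls, 348.5, 753.4 and 507.6 with Dox, and 451.1, 385.8 and 412.7 with Tc, which left every Tc library below every control (log2 difference -0.47, limma adjusted p = 0.517). In the annotation 40.2% of its exon bases are shared with Cdip1 on the opposite strand. Blvra and Blvrb encode biliverdin reductases, which turn biliverdin into bilirubin. Blvra stood between 106.2 and 110.6 in controls and between 62.1 and 88.5 with Dox (log2 difference -0.61, limma adjusted p = 0.0516). Blvrb stood between 330.9 and 357.3 in controls and between 509.4 and 624.6 with Dox. Its log2 difference of 0.71 (standard error 0.14, limma adjusted p = 0.0203) passed the adjusted p but not the fold change limit, and without libraries 3 the adjusted p was 0.558 with limma and 0.228 with DESeq2.

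Dox and Tc are isomers that differ in where a hydroxyl group sits on the shared ring system of the tetracyclines. They were given at the same concentration in drinking water for the same time. The dose taken in is not given in the sources used here. The comparison of both drugs covered 9 genes, with p-values adjusted over all 12100. Alas1 was the gene furthest below its Tc level with Dox, at 0.491, 0.203 and 0.398 times the Tc value in same-numbered libraries (log2 difference -1.55, 95% interval -2.39 to -0.71, limma adjusted p = 0.104). In all, 5 of 23 alternatives called it, with adjusted p from 1.18e-05 to 0.755 over all 23, DESeq2 gave 0.0039, and limma without Dox library 2 gave 0.0396. Hmox1 was the gene furthest above its Tc level, at 1.08, 9.16 and 4.29 times the Tc value (log2 difference 1.80, interval 0.17 to 3.43, limma adjusted p = 0.205), and DESeq2 gave 0.00663. For Hmox1 the log2 difference was 0.99 without Dox library 2 and 2.74 without Dox library 1 (limma adjusted p = 0.0104). Without libraries 3, the log2 differences of Alas1 and Hmox1 were -1.66 and 1.65.

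Alad, Uros, Urod, Cpox and Ppox were below their Tc level with Dox in each same-numbered pair of libraries. Cpox was at 0.935, 0.393 and 0.640 times the Tc value in libraries 1 to 3 (log2 difference -0.70, interval -1.27 to -0.13, limma adjusted p = 0.177). Alad had a log2 difference of -1.16 (interval -2.26 to -0.07, limma adjusted p = 0.216), Urod one of -0.64 (interval -1.21 to -0.06, limma adjusted p = 0.203) and Uros one of -0.92 (interval -1.86 to 0.02, limma adjusted p = 0.24). For these 4 genes the gap was widest between the libraries numbered 2, and without Dox library 2 the log2 differences were -0.40 (Cpox), -0.52 (Alad), -0.35 (Urod) and -0.43 (Uros). Without Dox library 1 they were -0.92, -1.61, -0.91 and -1.34, and limma called Alad and Uros (adjusted p = 0.0373 and 0.0326). For Ppox the difference was -0.33 (interval -0.85 to 0.19), for Fech 0.08 (interval -0.44 to 0.60) and for Alas2 -0.34 (interval -3.28 to 2.59), with limma adjusted p of 0.392, 0.839 and 0.882. These intervals hold differences of either sign, so the drugs were not shown to differ in these genes, nor to act alike. Without libraries 3, the lowest adjusted p over the 9 genes was 0.755 with limma and 0.48 with DESeq2. The interval for Alas2 was the widest of the 9.

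Levels of different genes can be set side by side only per length, here as normalized counts per kilobase of the principal transcript. In controls, Alas1 was highest at 1139 ± 268 (SD, n = 3) and Alad followed at 853 ± 104, with overlapping ranges. Cpox at 438 ± 64.1 and Urod at 426 ± 23.9 came next and did not differ beyond their spread. Fech at 177 ± 24.8, Hmox1 at 152 ± 39.3, Alas2 at 111 ± 53.2 and Uros at 110 ± 24.5 each overlapped with the next in order, and Ppox was lowest at 61.5 ± 8.16. Ranges parted only after Alad, after Urod and after Uros. With Tc, Alas1 at 3765 ± 338 stood apart from Alad at 1060 ± 215, and the range of Alad from that of Urod at 522 ± 64.9. With Dox, Alas1 at 1404 ± 664, Hmox1 at 655 ± 616 and Alad at 556 ± 339 overlapped, as did each further neighbour down to Fech. Uros at 48.9 ± 28.1 took the lowest place there, below Ppox at 59.4 ± 13.8, with overlapping ranges.

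**Figure D4:**
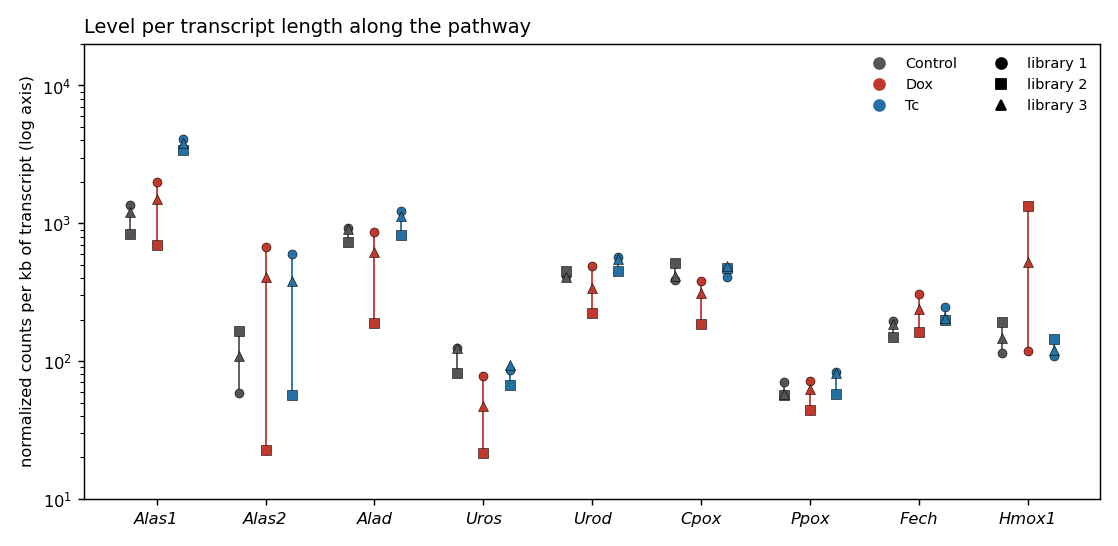
Normalized counts per kilobase of principal transcript on a log axis, with genes in the order of the pathway and Hmox1 last; each symbol is a library and lines join the lowest and highest of a group. The first enzyme, Alas1, is at the top and Ppox near the bottom in controls, and the longest lines are those of Alas2 with either drug and of Hmox1 with Dox.

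Other genes around heme were taken from lists chosen with earlier results of these data known. Counts called below stand beside shares over all genes of 5%, 0.165% and 0.215% with limma and 9.4%, 1.56% and 4.98% with DESeq2. These are for Dox, Tc and Dox against Tc, in that order. edgeR called 668, 21 and 0 of all 12100 genes, and DESeq2 without libraries 3 called 145, 9 and 31 of 12096. At an unadjusted p under 0.05, limma had 3516, 1412 and 2622 of all 12100 genes. Of 23 partners of the pathway (transporters, biliverdin reductases, heme and hemoglobin scavengers), limma called 0 higher and 1 lower with Dox, where it called 5% of all genes, and 0 with Tc or between the drugs, where 2 and 8 had an unadjusted p under 0.05. DESeq2 called 4 with Dox (Abcg2 and Slc25a28 higher, Hpx and Hp lower), 1 with Tc (Clpx, lower) and 3 for Dox against Tc (Clpx higher, Hpx and Hp lower), edgeR called 1, 0 and 0, and DESeq2 without libraries 3 called 0 in each. Genes of the lists called with DESeq2 alone are named here after their values were seen. The median log2 difference of the partners was 0.05 with Dox and 0.09 with Tc, and 0.00 over all genes in both. The gene that fell was Hp, haptoglobin, the plasma scavenger of hemoglobin, from 71345.5, 86725.5 and 75540.1 normalized counts in controls to 17091.0, 33221.9 and 21809.0 with Dox (log2 difference -1.75, limma adjusted p = 0.0389, and 0.195 with DESeq2 without libraries 3). Clpx, whose product belongs to a mitochondrial protease that handles ALAS1, was picked after its values were seen. It stood at 1270.2, 1286.3 and 1162.0 in controls, 680.2, 2285.6 and 1196.5 with Dox and 480.4, 515.3 and 536.5 with Tc, which left every Tc library below all others (log2 difference from controls -1.28, limma adjusted p = 0.247, DESeq2 adjusted p = 0.0325, and 1 with either tool without libraries 3).

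Of 14 regulators of heme genes, limma called 1 higher and 0 lower with Dox, where it called 5% of all genes. It called 0 with Tc or between the drugs, where 2 and 7 had an unadjusted p under 0.05, beside 1412 and 2622 of all 12100 genes. DESeq2 called Maff and Ppargc1a higher with Dox, 0 genes with Tc, and Maff, Ppargc1a and Nr1d1 higher for Dox against Tc, beside 9.4%, 1.56% and 4.98% of all genes. edgeR called 1, 0 and 0, and without libraries 3 DESeq2 called 1, 0 and 0. The log2 difference was above 0 for 14 of the 14 with Dox (median 0.49) and for 8 of 14 with Tc (median 0.07), beside 50% and 50.5% of all genes tested. Maff, a small MAF protein that pairs with NRF2 or BACH1 at Hmox1 enhancers, rose from 27.5, 14.2 and 17.8 normalized counts in controls to 55.8, 678.7 and 281.5 with Dox (log2 difference 3.46, limma adjusted p = 0.0299, and 0.01 with DESeq2 without libraries 3). Its highest library was Dox library 2, as for Hmox1. Ppargc1a, also highest there, stood at 204.3, 82.3 and 134.8 in controls and 108.5, 1463.2 and 604.4 with Dox. Dox library 1 thus lay within the control range, and the limma adjusted p was 0.176, and 0.298 without Dox library 2.

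Of 18 heme proteins of the liver, mostly cytochromes P450, limma called 2 higher and 0 lower with Dox, where it called 5% of all genes. It called 0 with Tc or between the drugs, where 4 and 7 had an unadjusted p under 0.05, beside 1412 and 2622 of all 12100 genes. The median log2 difference was 0.60 with Dox and 0.35 with Tc. DESeq2 called 6 higher with Dox, 2 higher with Tc (Cyp2a5 and Cyp1a2) and 4 for Dox against Tc (Cyp2a5 and Cyp2b10 higher, Cyp51 and Cyp7a1 lower). Its shares over all genes were 9.4%, 1.56% and 4.98%. edgeR called 3, 0 and 0, and without libraries 3 DESeq2 called 2, 0 and 0. Cyp2b10 stood at 22.1, 7464.3 and 2572.5 with Dox and 27.3, 70.1 and 28.6 with Tc, so Dox library 1 lay below every Tc library. For Dox against Tc its limma adjusted p was 0.216, and 0.355 without Dox library 2. Cyp2a5, a P450 of xenobiotic metabolism with close paralogs, rose from 2384.9, 828.1 and 1734.2 normalized counts in controls to 7440.4, 36492.2 and 17022.9 with Dox (log2 difference 3.46, limma adjusted p = 0.015, and 0.0024 with DESeq2 without libraries 3). With Tc it stood at 8388.2, 4526.0 and 6111.1, above every control (log2 difference 2.03, limma adjusted p = 0.262). Tdo2, the heme enzyme that opens tryptophan, rose from 5820.8, 6244.2 and 5890.3 to 16846.7, 23146.4 and 18362.0 with Dox (log2 difference 1.69, limma adjusted p = 0.00744, and 0.000898 with DESeq2 without libraries 3). With Tc it stood at 13199.5, 9079.8 and 10754.3 (log2 difference 0.86, limma adjusted p = 0.171).

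Whole liver holds several cell types, and in bulk tissue fewer cells of a type cannot be told apart from less RNA per cell. The hepatocyte label held: Alb, Apob and Cps1 had a lowest value over all libraries of 35785.2 normalized counts, that of Cps1 in Tc library 2. Their list of markers summed to 1313800 to 1821100 in controls, 511610 to 1009700 with Dox and 1006000 to 1516300 with Tc, so that every Dox library was below every control. Alb was the largest part of that sum in every library. The log2 difference with Dox was below 0 for 7 of the 9 markers tested and above 0 for 2, Cps1 and Hnf4a. In Dox library 1, Apob (171471.0) and Ttr (55767.1) lay above every control. With Dox, limma called 0 of the 9 tested higher and 1 lower (Fgb), beside 5% of all genes. DESeq2 called Alb and Fgb lower, beside 9.4% of all genes. Dox library 2, in which 7 of the 9 heme genes were lowest, had the lowest hepatocyte sum. Its Alb stood at 255547.5 normalized counts against 956160.4 to 1408836.3 in controls, its Ttr at 6796.0 against 32043.6 to 37008.5 and its Serpina1c at 1996.9 against 12586.5 to 16981.8. Cps1 and Hnf4a went the other way there, at 127213.0 and 20157.9 against highest control values of 58689.8 and 11276.4. Genes other than the 3 most abundant were picked after their values were seen, and the part of these shifts in the heme genes was not tested. For the erythroid cells in which Alas2 is known to act, the markers in the table, 19 of 20, had a summed level of 1542 to 5989 in controls, 881 to 1295 with Dox and 1139 to 1340 with Tc. Of the 10 that could be tested, limma called 4 lower and 0 higher with Dox, beside 5% of all genes. It called 0 with Tc, where 5 had an unadjusted p under 0.05, beside 1412 of all 12100 genes. DESeq2 called 6 lower and Klf1 higher with Dox, and 5 lower with Tc (Slc4a1, Hbb-bs, Hbb-bt, Hba-a1, Hba-a2), beside 9.4% and 1.56% of all genes. edgeR called 6 and 0, and DESeq2 without libraries 3 called 2 and 0. Hbb-bs, the most abundant, stood at 815.1, 3276.9 and 2222.4 normalized counts in controls, 707.6, 480.8 and 603.5 with Dox and 573.2, 748.2 and 555.0 with Tc. Hba-a1 and Hba-a2, alpha globin genes with near-identical copies, were called lower with Dox, at log2 differences of -1.80 and -1.90 (limma adjusted p = 0.0444 and 0.0499). Neither was called with libraries scaled to the same total (adjusted p = 0.06 and 0.0626) or with DESeq2 without libraries 3 (0.198 and 0.196). Slc4a1 and Hbb-bt were the others called lower, at log2 differences of -4.37 and -2.3 (limma adjusted p = 0.00942 and 0.0318). Both were also called with libraries scaled to the same total (limma adjusted p = 0.0105 and 0.0425). DESeq2 without libraries 3 called both as well (adjusted p = 0.00528 and 0.0474). The summed erythroid markers of every drug library, with high Alas2 (libraries 1 and 3) or low Alas2 (library 2), were thus below those of every control. Within controls Alas2 and the markers were both highest in library 2. Globins made up most of that sum, and other genes of the list, picked after their values were seen, ran differently. Car1, an erythroid carbonic anhydrase, stood at 21.2, 28.3 and 28 in controls, 74.8, 1.2 and 56.3 with Dox and 94.7, 32.4 and 57.3 with Tc, so that within each drug its libraries fell in the same order as for Alas2. Klf1, an erythroid transcription factor, stood at 8.5, 23.0 and 25.4 in controls and at 43.2, 64.4 and 47.5 with Dox (log2 difference 1.52, limma adjusted p = 0.057, DESeq2 adjusted p = 0.00966).

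Macrophages of the liver, a known site of Hmox1, had a summed marker level of 10548 to 19462 in controls, 2890 to 10071 with Dox and 5153 to 10108 with Tc. Over all genes, limma called 5% with Dox and 0.165% with Tc, and DESeq2 called 9.4% and 1.56%. Of 12 markers, limma called 3 lower and 0 higher with Dox (Adgre1, Clec4f, Csf1r). It called 0 with Tc, where 4 had an unadjusted p under 0.05, beside 1412 of all 12100 genes. DESeq2 called 7 lower with Dox and 0 with Tc, edgeR 3 and 0, and DESeq2 without libraries 3 only Clec4f with Dox (adjusted p = 0.0198, and 0.156 for Adgre1 and 0.275 for Csf1r). Clec4f, a Kupffer cell lectin, stood at 2148.8, 3405.2 and 2497.0 in controls and 623.4, 899.5 and 688.0 with Dox (log2 difference -1.85, limma adjusted p = 0.00958), and Csf1r at 1765.6, 2993.8 and 2554.2 against 510.7, 1152.6 and 696.8. Cd5l, the most abundant, stood at 2229.3, 3855.5 and 2878.4 against 591.8, 1960.1 and 1003.0. Dox library 2, with the highest Hmox1, also had the highest macrophage marker sum of the Dox libraries, at the level of Tc library 2. It was below that of every control, as was the sum of every other Dox or Tc library. Single markers, picked after their values were seen, did not all follow the sum. In Dox library 2, Cd68 stood at 358.9 against 109.0 to 170.4 in controls, and Marco (1824.4 against 238.2 to 2391.3), C1qa (716.6 against 628.8 to 967.9) and C1qb (923.7 against 804.5 to 1165.1) lay within the control range. The part of either cell type in the Alas2 and Hmox1 levels was not tested.

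**Figure D5:**
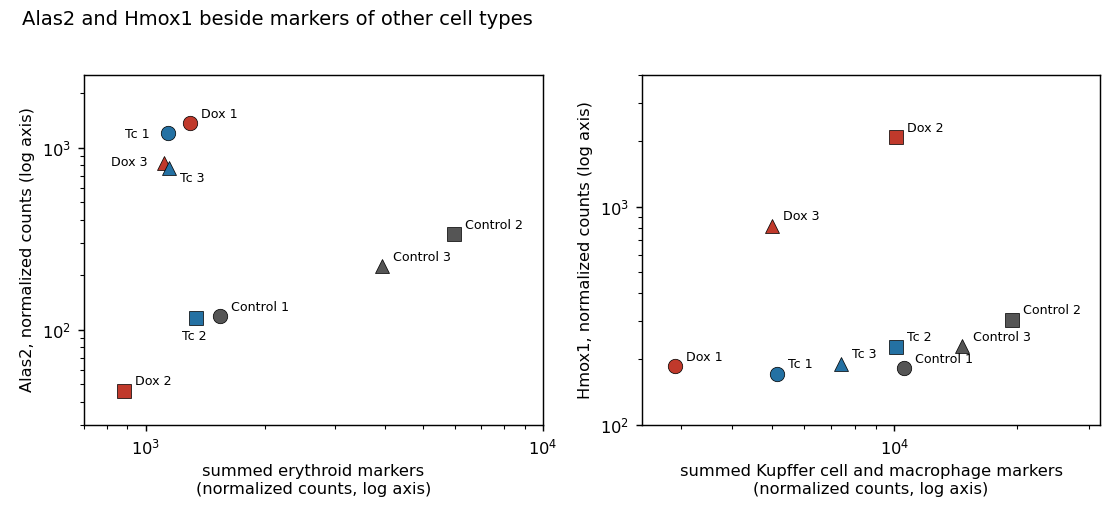
Left, Alas2 against the summed erythroid markers, and right, Hmox1 against the summed Kupffer cell and macrophage markers, in normalized counts per library on log axes. Every Dox and Tc library has an erythroid sum below that of every control, whether its Alas2 is high or low. The same holds for the macrophage sum and Hmox1, although Cd68, Marco and the C1q genes in Dox library 2 were not below the controls.

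Markers of other cells were as follows, beside shares over all genes of 5% with Dox and 0.165% with Tc for limma and 9.4% and 1.56% for DESeq2. With Tc, 1412 of all 12100 genes had an unadjusted p under 0.05 with limma. Endothelial markers summed to 4981 to 5189 in controls, 2365 to 3171 with Dox and 3610 to 4431 with Tc, and limma called 2 of 7 lower with Dox, Stab2 and Cdh5, while Kdr had a log2 difference of -0.84. Cdh5 was not called with DESeq2 (log2 difference -0.99), with libraries scaled to the same total (adjusted p = 0.0687) or with DESeq2 without libraries 3 (adjusted p = 0.436), all of which called Stab2. Neutrophil markers summed to 54.0 to 503 in controls, 4.21 to 121 with Dox and 14.6 to 121 with Tc, and 1 of 5 tested was called lower with Dox, Mpo, while the abundant S100a9 and Ngp were not called. Bile duct markers summed to 200 to 243 in controls, 148 to 372 with Dox and 255 to 335 with Tc, and 1 of 3 tested was called higher with Dox, Sox9, while Spp1 and Krt19 were not called. No marker of these 3 lists was at 0 in every library. With Tc, limma and edgeR called 0 of them, while 4 endothelial, 2 neutrophil and 0 bile duct markers had an unadjusted p under 0.05 with limma. DESeq2 called Lyve1 and Mpo lower with Tc (log2 differences -1.30 and -3.13, adjusted p = 0.044 and 0.0108), and neither without libraries 3.

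The genes whose values most resembled those of Alas1, Alas2 and Hmox1 were ranked by Pearson correlation of log2(normalized count + 1) over the 9 libraries, as a description without a test, since the libraries share groups. For Alas1 they were Gm45051 (0.985), Per3 (0.984), Gnat1 (0.974), Slc22a23 (0.962) and Nme1 (0.958). For Alas2 they were Slc22a28 (0.993), C6 (0.989), Cspg5 (0.986), Scp2 (0.980) and Mup7 (0.979). Mup7, a gene with close paralogs, stood at 19.1, 34.5 and 39.4 normalized counts in controls, 5031.2, 0.0 and 2896.2 with Dox and 3474.4, 9.0 and 2220.9 with Tc, the same order of libraries as for Alas2 within each drug. For Hmox1 they were Tfap4 (0.991), Bbc3 (0.989), Rbbp8 (0.988), Sgk1 (0.987) and Erf (0.986), each with its highest value in Dox library 2.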

How the data were processed

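Liver RNA of 3 groups (Control, Dox, Tc; 3 libraries each, grouped by the sample labels) was sequenced from directional libraries. Per the submitters' notes, the authors trimmed reads with cutadapt, mapped them to mm10 with STAR 2.7.11ac, counted them with HTSeq 2.0.5 and normalized them with DESeq2 1.42.0. The deposited values are a signal: normalized counts, in which each library's counts were divided by its own size factor, and 0 columns were left unmapped. Whole reads were recovered for 100% of values (tolerance 0.05).

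Log2(normalized count + 1) was tested with limma 3.58.1 (trend, R 4.3.3), leaving out genes with a mean under 10. DESeq2 1.42.0 and edgeR 4.0.16 on recovered reads were alternatives, as were the pseudocount, filter, scaling, groups in the fit, a replicate block and libraries left out. The tests were checked on simulated data. The 9 genes and all lists were chosen with earlier results of these data known. Named were the 9 genes, Hmox2, Blvra, Blvrb, other called genes of the heme lists, the 3 most abundant genes of each marker list and the 5 genes most like Alas1, Alas2 and Hmox1; 1 other gene that this rule named, and its place in the partner list, are not reported here. Coordinates and principal transcripts are from GENCODE on GRCm38, and promoters from RefSeq on GRCm38.p6.

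Deviations from the group mean correlated weakly between Dox and Tc libraries of the same number (0.29, 0.32 and 0.18), and the numbers in the labels were taken to pair them. The sources used here give no pairing, so it rests on these same data. Controls did not pair with Dox (-0.05, -0.04 and 0.06) or Tc (0.01, -0.05 and -0.08). As the source of libraries 3 was not tested, these values cannot be taken as independent. The study describes the libraries as independent samples and biological replicates. The labels do not name separate mice, so the p-values measure the spread between these libraries.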

Additional observations from a re-analysis of the deposited data

How the results depend on the processing

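The number of the 9 heme genes called, 0 in each comparison with limma, moved under these alternatives. DESeq2 on recovered reads called 2 with Dox (Hmox1, Uros), 1 with Tc (Alas1) and 2 for Dox against Tc (Alas1, Hmox1). A limma fit restricted to Tc and control libraries called 1 gene, Alas1. DESeq2 without Dox replicate 2, chosen after seeing the data, called 0 with Dox and 1 (Alas1) in each other comparison. Leaving out 1 library at a time gave 0 to 2, 0 to 1 and 0 to 4 genes with limma: without Dox replicate 1 it called Hmox1 and Uros with Dox, and these with Alad and Alas1 for Dox against Tc, and without Dox replicate 2 it called Alas1 with Tc and for Dox against Tc. The cause was not tested.

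A replicate block in the limma fit gave 1 called gene with Dox (Uros, -1.32, adjusted p = 0.0437) and 0 in the others, and the block in a fit of Tc and controls alone gave 1 with Tc (Alas1, 1.75). DESeq2 with the block, chosen after seeing the data, called 2, 1 and 2, the genes it called without it. For Dox against Tc, the comparison whose numbers were taken to pair, the block changed no call with either tool.

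Directions turned for differences near 0 or with a wide error, none of them called. With libraries scaled to the same total, Ppox was at 0.10 with Dox. That scaling moved the median of all genes by 0.17 with Dox, and its higher calls numbered 247 of 572 against 138 of 605. Without libraries 3, Cpox with Tc was at -0.03 with limma and -0.04 with DESeq2. For Dox against Tc, Alas2 was at 0.09 with DESeq2 with or without libraries 3 and at 0.10 with edgeR. DESeq2 without Dox replicate 2 gave 0.65 there and 0.11 for Ppox with Dox. Leaving out 1 library at a time with limma, ranges were -0.13 to 0.64 (Alas1), -0.07 to 2.36 (Alas2), -0.21 to 0.13 (Ppox) and -0.45 to 0.10 (Hmox2) with Dox, and -0.02 to 0.18 (Cpox) with Tc. For Dox against Tc they were -1.37 to 1.16 (Alas2) and -0.13 to 0.32 (Fech). The Alas1 to Alas2 ratio with Tc ranged from -0.40 to 1.16. Of 864 values over 12 genes, 3 comparisons and these alternatives, 821 kept direction and call, 24 gained a call and 19 turned in sign.

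Over all genes, limma calls of 605, 20 and 26 compare with 1137, 189 and 603 for DESeq2 and with 0, 0 and 0 for limma without libraries 3, where 1038, 239 and 454 genes had an unadjusted p under 0.05. With libraries 3 left out, each group has 2 libraries. The lowest values of the heme genes, 38.0 (Uros) and 46.0 (Alas2) normalized counts in Dox replicate 2, carry the most counting error.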
